A study of Mus musculus with 56 samples.

Results

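The livers of floxed mice taken 100 and 200 days after Cre delivery were compared with livers of uninjected floxed mice by RNA-seq, across every gene whose mean over the 5 livers reached 1 FPKM (11340 of the 21888 gene symbols in the table). FPKM is a level scaled to the length of the transcript and to the size of the library. The mice of both groups were of the 129Sv/J strain and carried loxP sites around the precursor of miR-122. The late group is 1 mouse killed at day 100 and 1 killed at day 200 after tail vein injection of 1e12 vector genomes of rAAV8-Cre, an adeno-associated virus in which the Ef1a promoter drives Cre in any transduced cell. These 2 livers were joined as 1 group and set against 3 uninjected livers, named A, B and C (day 0). The spread behind the p-values was estimated over 14 livers of the 129Sv/J strain, which also hold 3 livers each taken 21 and 45 days after Cre delivery and 3 livers of miR-122 knockout mice. Each library is 1 mouse, and the 5 livers are part of a series of 56 samples. No mice that received a vector without Cre were analysed here, and the exact ages of the mice, described by the study as adult, are not given. Effects of the vector, of Cre, of age and of miR-122 loss therefore cannot be told apart. In whole liver, fewer cells of a type and less RNA per cell cannot be told apart either.

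miR-122 is the most abundant microRNA of hepatocytes, the parenchymal cells of the liver. Bound to Argonaute, a microRNA pairs through its seed (bases 2 to 8) with sites that lie mostly in the 3′ untranslated region (UTR) of mRNAs, and lowers their stability and translation. Adult mice without miR-122 are known to develop fatty, inflamed and fibrotic livers and later tumours. Transcripts of the imprinted Igf2-H19 and Dlk1-Dio3 loci, which are expressed from 1 parental allele and abundant in fetal liver, are silent in most adult hepatocytes.

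In the small RNA libraries with the same labels, which are not stated to be from the same mice, miR-122 made up 73.29%, 59.17% and 66.66% of microRNA reads in uninjected livers A, B and C. It made up 4.456% at day 100 (95% Wilson interval 4.396 to 4.517%) and 19.08% at day 200 (18.99 to 19.17%). The intervals cover the counting of 451510 and 771736 reads only. Both late livers lay below all 3 uninjected livers, and the share was larger at day 200 than at day 100. miR-122 in the RNA-seq livers themselves was not measured unless these are the same mice, and with 1 mouse at each time, mouse and day cannot be told apart.

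Some facts of the RNA-seq libraries bear on what follows. FPKM hold no fragment numbers, so the depth behind a value is unknown and no counting interval can be given. The median log2 difference of all genes was 0.31 (0.37 at day 100 and 0.25 at day 200), so list medians are given after subtraction of it. The 10 most abundant genes of each library held 20.7%, 19.5% and 19.1% of its summed FPKM in A, B and C. They held 12.1% at day 100 and 14.8% at day 200, and the part of this in the shift of all genes was not tested. Transcripts of the Y chromosome were found in 1 of the 5 livers, uninjected B (Ddx3y 20.8 FPKM, against at most 0.036 in the other 4), while A, C, day 100 and day 200 had Xist at 36.3 to 71.6 FPKM. The labels do not give the sex. Genes that differ between male and female liver are taken up separately, and the main counts are also given without the 4 livers of the fit with Y-linked transcripts (uninjected B and 1 each of day 21, day 45 and the knockout), a choice made after these values were seen.

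The mature microRNAs of the loci that led the rises, and those of 3 abundant liver microRNAs whose predicted targets are counted further on, are given here 5′ to 3′ from RefSeq (GRCm38.p6), with the seed in capitals. miR-483 lies within Igf2 and miR-675 within H19 on chromosome 7, and miR-410 lies within Mirg on chromosome 12.
miR-483-3p: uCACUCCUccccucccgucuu
miR-483-5p: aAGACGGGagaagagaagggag
miR-675-3p: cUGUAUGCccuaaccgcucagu
miR-675-5p: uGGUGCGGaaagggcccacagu
miR-410-3p: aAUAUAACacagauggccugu
let-7a-5p: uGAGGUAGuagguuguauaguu
miR-21a-5p: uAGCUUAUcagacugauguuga
miR-30a-5p: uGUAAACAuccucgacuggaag
No 2 of these 8 share a seed. In RPM, which are shares of all microRNA reads with the added 1 removed, miR-483 had no read in the 3 uninjected livers and stood at 4350 at day 100 and 2847 at day 200. miR-675 went from no read in all 3 uninjected livers to 569 and 174 RPM, and miR-410 from no read to 222 and 28.5 RPM. All of these values were higher at day 100 than at day 200. let-7a-2 was at 23777, 13184 and 40770 RPM in A, B and C and at 59492 and 52453 RPM at days 100 and 200. miR-30a went from 2706, 3931 and 3774 to 8591 and 12464 RPM, while miR-21 (12117, 91408 and 5654, then 119008 and 42577) overlapped between the groups. RPM also move with the share that miR-122 takes. Scaled to 1e6 reads other than miR-122, let-7a-2 was at 89019, 32290 and 122304 and then 62266 and 64820, miR-30a at 10130, 9627 and 11321 and then 8992 and 15403 and miR-21 at 45364, 223886 and 16960 and then 124558 and 52615. On this scale the groups were not separated in any of these 3 microRNAs.

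Against the uninjected livers, 3212 genes were higher (28.3% of 11340 genes) and 371 were lower (3.27%) at days 100 and 200 at an adjusted p under 0.05 (limma on log2(FPKM + 1), Benjamini-Hochberg over all 11340 genes), and 7757 did not pass. Higher genes made up 89.6% of the calls. With each library centred on its median, 1878 genes were higher and 928 lower, and the share of higher genes was 66.9%, so part of the excess of rises goes with the shift of all genes. Of the called genes, 1854 were higher and 131 lower by 1 or more on the log2 scale, and 93 were higher and 5 lower by 3 or more. Both late livers lay above all 3 uninjected livers in 5967 genes (52.6%) and below all 3 in 1337 (11.8%). All but 2 of the genes called higher, and all genes called lower, had groups that did not overlap. Without the livers with Y-linked transcripts, 3836 genes were higher and 659 lower. The pair of late livers carried unequal weight. With day 200 alone as the late group 1575 genes were higher and 76 lower, and without the day 200 liver 2485 were higher and 249 lower, where the lone late liver is assumed to vary like the other groups. The filter also matters for low genes, since 977 tested genes had an uninjected mean under 1 FPKM and passed through the late livers, and 856 of them were called higher. Among the 10363 genes with an uninjected mean of 1 FPKM or more, 22.7% were higher and 3.58% lower. For lists with members that passed only through the late livers, the count of higher genes among the members with an uninjected mean of 1 FPKM or more is therefore given as well, and beside the list medians that of these members, against all genes with such a mean.

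**Figure D1:**
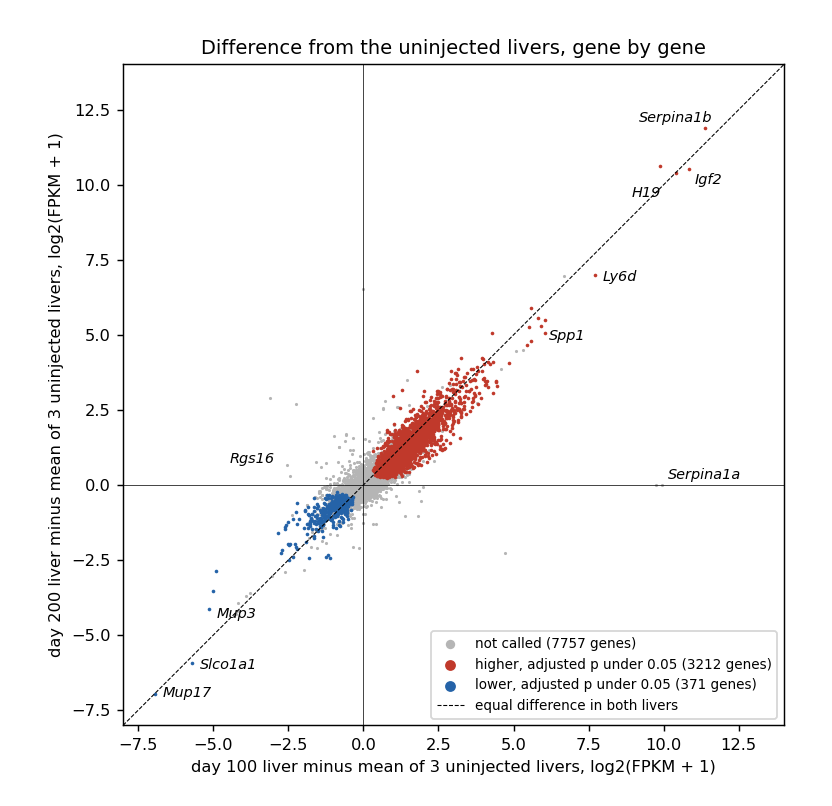
Each point is 1 of 11340 genes, with its difference from the mean of the 3 uninjected livers on the log2(FPKM + 1) scale, in the day 100 liver (horizontal axis) and in the day 200 liver (vertical axis). Red genes (3212) were called higher and blue genes (371) lower, and most points lie close to the dashed line of equal difference, with Igf2 and H19 near the upper end and Mup17 and Slco1a1 at the lower end. Serpina1a and Serpina1b are listed at 0 in uninjected livers.

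Igf2 and H19 had the largest differences of all genes that were above 0 in every liver. Igf2, which encodes a fetal growth factor (mm9, chromosome 7, 149836673 to 149846940), stood at 1.82, 0.200 and 0.220 FPKM in uninjected livers A, B and C and at 2932 and 2374 FPKM in the day 100 and day 200 livers. All later values are given in this order. The difference was 10.68 ± 1.25 on the log2(FPKM + 1) scale (± SE, adjusted p = 1.2e-04). H19, a non-coding RNA of the same locus (chromosome 7, 149761437 to 149764051), went from 2.03, 0.415 and 0.486 to 2539 and 2486 FPKM, a difference of 10.41 ± 0.96 (adjusted p = 4.5e-05). Both transcripts were at 2.03 FPKM or less in the uninjected livers, highest in liver A, and among the abundant transcripts of both late livers. Igf2as, an antisense transcript that overlaps Igf2 (chromosome 7, 149845598 to 149856261), was listed at 0 in all uninjected livers and at 6.88 and 4.05 FPKM in the late ones, and Nctc1 (chromosome 7, 149730514 to 149744503), on the other side of H19, went from 0 in all 3 to 4.16 and 3.57 FPKM. No fold is given for either. Reads of Igf2 and of its antisense partner cannot be told apart where the library does not keep strand.

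On chromosome 12, 4 transcripts of the Dlk1-Dio3 locus moved the same way. Meg3, the first of the maternally expressed non-coding RNAs (chromosome 12, 110779206 to 110809939), was at 0.392, 0.181 and 0.348 FPKM in uninjected livers and 61.3 and 35.2 FPKM in late livers, a rise of 5.19 ± 0.71 (adjusted p = 2.7e-04). Rian, the host of small nucleolar RNAs (chromosome 12, 110842155 to 110899921), went from 0.236, 0.123 and 0.234 to 50.8 and 29.0 FPKM and rose by 5.04 ± 0.63 (adjusted p = 1.6e-04). Mirg, the host of a large microRNA cluster (chromosome 12, 110973191 to 110987667), went from 0.015, 0 and 0.061 to 11.5 and 5.89 FPKM and rose by 3.18 ± 0.42 (adjusted p = 2.3e-04). These 3 transcripts were higher at day 100 than at day 200. Dlk1, a paternally expressed fetal membrane protein of the same locus (chromosome 12, 110691033 to 110701546), was at 0.005, 0 and 0 FPKM and then at 3.25 and 4.48 FPKM, a rise of 2.27 ± 0.41 (adjusted p = 0.0013), with the higher value at day 200. Of 31 imprinted genes listed, 21 were tested and 16 were higher and none lower (8 of the 12 with an uninjected mean of 1 FPKM or more). Their median lay 1.14 above that of all genes (0.58 for the 12), and the count was 12 without the day 100 liver. Dcn, which encodes the matrix proteoglycan decorin and is imprinted in placenta, was among them, with 157, 116 and 158 FPKM followed by 355 and 426 FPKM (1.44 ± 0.30, adjusted p = 0.0029).

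Most tested fetal and progenitor genes outside these loci were also higher. Of 30 listed, 20 were tested and 16 were higher, none lower (11 of 15 with an uninjected mean of 1 FPKM or more), and their median lay 2.68 above that of all genes (3.09 for the 15). Without the day 100 liver the count was also 16. Spp1, Tspan8, Epcam and Sox9 of this list are also on the list of bile duct markers. The 4 tested members that did not pass were Gpc3, Lgr5, Plvap and Tff3, each with overlapping groups, and Lin28b, an RNA-binding protein of fetal cells, was listed at 0 in all 5 livers. Ly6d, a GPI-anchored surface protein of early B cells and epithelia, went from 3.40, 1.68 and 2.62 to 733 and 443 FPKM (7.35 ± 1.03, adjusted p = 3.1e-04). Spp1, which encodes osteopontin, a matrix protein secreted by bile duct cells and macrophages, went from 40.9, 45.2 and 54.6 to 2866 and 1854 FPKM (5.60 ± 0.40, adjusted p = 1.1e-05). Neither gene had overlapping groups, and both were higher at day 100. Tspan8, a tetraspanin of epithelial cells, went from 1.65, 1.39 and 2.15 to 122 and 104 FPKM (5.39 ± 0.47, adjusted p = 3.8e-05). Cd24a, a surface marker of hepatic progenitors, was nearly equal in the late livers, at 56.5 and 56.9 FPKM against 2.50, 2.02 and 3.33 before (4.01 ± 0.38, adjusted p = 4.5e-05). Sox4, a transcription factor of embryonic tissues, was at 0.340, 0.457 and 0.776 and then 17.7 and 8.23 FPKM (3.12 ± 0.42, adjusted p = 2.6e-04). Of a list of 15 Ly6 and related GPI-anchored proteins 6 were tested and all 6 were higher (3 of 3 with an uninjected mean of 1 FPKM or more, and 3 without the day 100 liver), among them Ly6e with 282, 156 and 266 FPKM and then 687 and 493 FPKM (1.36 ± 0.37, adjusted p = 0.015) and Ly6a with 24.1, 16.8 and 42.7 FPKM and then 117 and 87.8 FPKM (1.93 ± 0.48, adjusted p = 0.0082). Ly6e lost its call without uninjected liver B. Ly6e and Ly6a lost their calls without the day 100 liver, and these fits gave an adjusted p of 0.056 to 0.16.

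**Figure D2:**
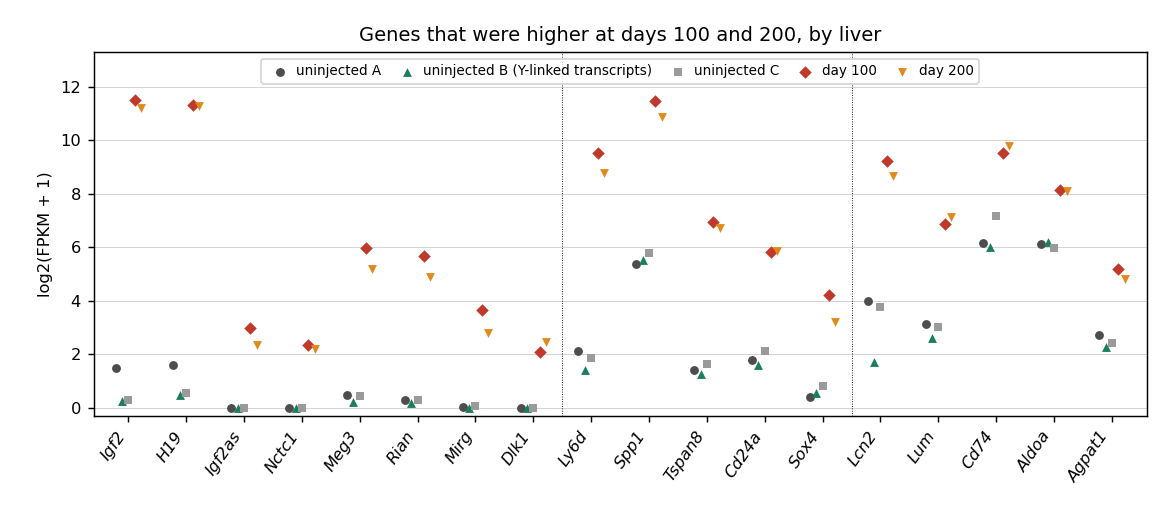
Levels of 18 genes that were higher at days 100 and 200, as log2(FPKM + 1) on the vertical axis, with 1 symbol per liver. From left to right, the blocks hold transcripts of the 2 imprinted loci, fetal and progenitor genes, and examples of the acute phase, matrix, antigen presentation and miR-122 target lists, and in each gene both late livers lie above all 3 uninjected livers.

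Most established targets of miR-122 were higher. Of 34 targets from the literature, 31 were tested and 26 were higher and none lower (24 of 29 with an uninjected mean of 1 FPKM or more), with a median 1.07 above that of all genes (0.92 for the 29). That excess was 1.18 in the day 100 liver and 0.87 in the day 200 liver, and 27 of the 31 had the larger difference at day 100 (24 after the median of all genes in the same liver was subtracted). With the day 100 liver left out 13 were higher. Aldoa, the muscle-type aldolase of glycolysis, was at 69.4, 73.1 and 62.1 FPKM and then at 280.1 and 274 FPKM, 2 almost equal values (2.01 ± 0.29, adjusted p = 3.7e-04). Agpat1, an enzyme of phosphatidic acid synthesis, went from 5.64, 3.91 and 4.41 to 35.9 and 27.4 FPKM (2.53 ± 0.28, adjusted p = 8.7e-05), and Gpx7, a glutathione peroxidase, from 2.68, 1.57 and 2.52 to 29.7 and 16.5 FPKM (2.85 ± 0.35, adjusted p = 1.6e-04). Cs, the citrate synthase of mitochondria, differed by less, at 60.4, 73.3 and 71.2 and then 126 and 114 FPKM (0.81 ± 0.20, adjusted p = 0.0083). Vim and Ccl2 are also on this list and are genes of mesenchymal cells and macrophages as well. Vim, an intermediate filament, rose by 2.46 ± 0.39 and Ccl2, a chemokine that draws monocytes, by 3.27 ± 0.55. Of the 129 predicted targets of the study's list, all were tested, and 64 (49.6%) were higher and none lower (63 of 128 with an uninjected mean of 1 FPKM or more, and 32 without the day 100 liver). With centring 41 were higher and 3 lower. Their median lay 0.43 above that of all genes (0.47 for the 128), and G6pc3, a ubiquitous glucose-6-phosphatase, was among the largest rises, from 4.86, 3.37 and 4.45 to 27.9 and 20.3 FPKM (2.26 ± 0.25, adjusted p = 1.0e-04). Cs lost its call without the day 100 liver, with an adjusted p of 0.088.

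Among predicted targets of other microRNAs the share of higher genes lay below that of all genes, but nearly all these targets had an uninjected mean of 1 FPKM or more, and beside the 22.7% of such genes the shares of miR-410 and let-7 targets lay above and those of miR-21, miR-30 and miR-483 targets below. Of 193 tested targets of miR-21, 40 were higher and 2 lower (20.7% and 1.04%, beside 28.3% and 3.27% of all genes), and their median was 0.02 below that of all genes. Of 821 tested targets of miR-30, 22.0% were higher and 1.95% lower, with a median 0.02 below, and of 380 of miR-410, 23.2% and 0.789%, also 0.02 below. Of 64 of miR-483, 21.9% were higher and none lower, with a median 0.03 below. The let-7 list used here is not complete, and 25.2% of its 638 tested genes were higher and 1.41% lower, with a median 0.0048 above that of all genes. Against all genes with an uninjected mean of 1 FPKM or more, the medians of such members of the 5 lists lay 0.014 (miR-483) to 0.052 (let-7) above. With centring the lists had 23 higher and 10 lower (miR-21), 86 and 44 (miR-30), 42 and 13 (miR-410), 8 and 1 (miR-483) and 77 and 31 (let-7). Without the livers with Y-linked transcripts the lower ones numbered 7 (miR-21), 28 (miR-30), 8 (miR-410), 2 (miR-483) and 19 (let-7), beside 659 of all genes. With 1 uninjected liver left out 8 to 14 targets of miR-30 and 5 to 9 of let-7 were lower, beside 252 to 288 of all genes. These 3 counts fell further when either late liver was left out. Without the day 100 liver, when the count over all genes fell to 1575, these 5 lists had 17 (miR-21), 66 (miR-30), 28 (miR-410), 7 (miR-483) and 61 (let-7) higher genes. Neither of the following targets passed the test. Pdcd4, a translation inhibitor and target of miR-21, was at 34.6, 51.8 and 49.8 FPKM and then at 36.6 and 32.6 FPKM (−0.36 ± 0.33, adjusted p = 0.44). Nr6a1, a germ cell nuclear receptor and target of let-7, was at 2.11, 2.86 and 2.88 and then 1.52 and 1.48 FPKM (−0.52 ± 0.21, adjusted p = 0.073), with both late livers below all uninjected livers and no call. Of the 16 tested genes that the study names, none was lower in the main fit, and 1 was with centring.

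Sites complementary to the printed seeds (7 letters, sense strand only) were searched in the annotated 3′ UTRs of 11001 tested genes, of which 28.5% were higher and 3.23% lower. AGGAGTG, the site of miR-483-3p, was in 13.5% of them (1490 genes), of which 447 were higher. CCCGTCT of miR-483-5p was in 3.63%, of which 34.3% were higher, and CCGCACC of miR-675-5p in 2.49%, of which 35.0% were higher. GCATACA, the site of miR-675-3p, was in 8.30% of genes, of which 26.0% were higher, and GTTATAT of miR-410-3p in 8.74%, of which 23.4% were higher. CTACCTC of let-7a-5p was in 11.2% (30.8% higher), ATAAGCT of miR-21a-5p in 7.75% (21.6% higher) and TGTTTAC of miR-30a-5p in 16% (25.8% higher). The share of lower genes lay between 1.77% and 4.01% in these 8 sets. A match describes letters only, and the sets differ in base composition and UTR length, whose part was not tested.

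Most tested markers of bile duct cells were higher, and the summed level of the list was higher too. Of 27 cholangiocyte markers, 24 were tested and 21 were higher, none lower (9 of 12 with an uninjected mean of 1 FPKM or more), and their median lay 2.24 above that of all genes (1.5 for the 12). Without the day 100 liver 19 were higher. The summed FPKM of the list was 208, 222 and 267 in uninjected livers and 3584 and 2491 in the late ones, where most of it was Spp1. Epcam, an epithelial adhesion protein absent from mature hepatocytes, went from 0.963, 1.04 and 1.28 to 24.4 and 29.6 FPKM (3.74 ± 0.38, adjusted p = 6.6e-05). Krt19 and Krt7, keratins of duct cells, went from 2.19, 1.01 and 1.82 to 15.0 and 19.4 FPKM (2.78 ± 0.63, adjusted p = 0.0052) and from 1.54, 0.601 and 0.917 to 8.52 and 11.6 FPKM (2.46 ± 0.47, adjusted p = 0.0018). Both keratins were higher at day 200 than at day 100. Mmp7, a matrix protease of injured epithelium, behaved in the same way, from 0.267, 0.226 and 0.252 to 23.4 and 41.0 FPKM (4.68 ± 0.44, adjusted p = 4.5e-05). Sox9, a duct and progenitor transcription factor, went from 0.534, 1.02 and 0.546 to 5.57 and 4.81 FPKM (1.87 ± 0.34, adjusted p = 0.0015). Cldn3, Dsg2 and Onecut1, which hepatocytes also express, did not pass.

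Matrix and cytoskeleton genes were higher as well. Of 55 fibrosis and matrix genes, 46 were tested and 40 were higher, none lower (24 of 30 with an uninjected mean of 1 FPKM or more), with a median 1.62 above that of all genes (1.68 for the 30), and 31 were higher without the day 100 liver. Col1a1 and Col3a1, chains of fibrillar collagens, went from 0.942, 0.648 and 0.881 to 15.6 and 9.40 FPKM (2.85 ± 0.57, adjusted p = 0.0025) and from 6.75, 5.60 and 8.65 to 92.1 and 42.1 FPKM (3.00 ± 0.47, adjusted p = 5.4e-04). Both collagens were higher at day 100. Lum, the proteoglycan lumican, went from 7.81, 5.14 and 7.07 to 117 and 139.8 FPKM (4.09 ± 0.35, adjusted p = 3.7e-05), with the higher value at day 200. Fn1, the fibronectin that hepatocytes secrete into plasma, was at 166, 155 and 186 and then 214 and 145 FPKM and did not pass (0.06 ± 0.34, adjusted p = 0.91). Of 20 stellate cell and fibroblast markers, 15 of 20 tested were higher (14 of 19 with an uninjected mean of 1 FPKM or more, and 8 without the day 100 liver), and their summed level went from 346, 260 and 354 FPKM to 899 and 892 FPKM. Pdgfra, a growth factor receptor of fibroblasts, went from 1.19, 1.01 and 1.26 to 10.7 and 11.6 FPKM (2.49 ± 0.31, adjusted p = 1.6e-04), while Acta2, the smooth muscle actin of myofibroblasts, was at 1.68, 2.24 and 2.60 and then 8.04 and 5.22 FPKM (1.25 ± 0.36, adjusted p = 0.019). Of 59 actin and focal adhesion genes tested, 47 were higher and none lower (46 of 58 with an uninjected mean of 1 FPKM or more, and 27 without the day 100 liver), such as Anxa2, a membrane-binding annexin, with 14.5, 12.5 and 16.7 FPKM followed by 247 and 181 FPKM (3.78 ± 0.41, adjusted p = 8.7e-05). Of 22 YAP and TEAD targets tested, 14 were higher (8 of 16 with an uninjected mean of 1 FPKM or more, and 8 without the day 100 liver), among them Ctgf, a matricellular growth factor, with 3.45, 0.985 and 1.98 FPKM followed by 22.4 and 24.3 FPKM (3.03 ± 0.55, adjusted p = 0.0013). Acta2 lost its call without uninjected liver A. Acta2 lost its call without the day 100 liver, and these fits gave an adjusted p of 0.062 to 0.20.

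Among immune genes, receptors of monocytes and antigen presentation genes were higher, while Clec4f, Timd4 and Cd163, markers of resident Kupffer cells, did not pass. Of 24 macrophage markers, 22 were tested and 12 were higher, none lower (7 of 17 with an uninjected mean of 1 FPKM or more), and 8 were higher without any one of uninjected A, uninjected B, day 100 and day 200. The summed level went from 613, 450 and 796 FPKM to 1701 and 1915 FPKM. Ccr2 and Cx3cr1, chemokine receptors of monocytes, went from 0.481, 0.519 and 0.875 to 14.3 and 9.63 FPKM (2.98 ± 0.31, adjusted p = 7.0e-05) and from 0.255, 0.118 and 0.259 to 13.6 and 10.0 FPKM (3.39 ± 0.38, adjusted p = 1.1e-04). Trem2, a lipid receptor of recruited macrophages, went from 1.14, 0.304 and 0.456 to 13.4 and 16.3 FPKM (3.31 ± 0.48, adjusted p = 3.7e-04). Clec4f, a lectin found on Kupffer cells, was at 60.0, 57.6 and 94.7 and then 79.1 and 72.0 FPKM (0.13 ± 0.28, adjusted p = 0.77). Timd4, a receptor of long-lived Kupffer cells, was at 5.58, 4.19 and 7.90 and then 5.65 and 1.79 FPKM (−0.64 ± 0.32, adjusted p = 0.15), and the day 200 liver was the lowest of the 5. The scavenger receptor Cd163 was also lowest at day 200, with 3.44, 5.27 and 8.24 and then 4.04 and 0.525 FPKM (−1.20 ± 0.46, adjusted p = 0.065). Timd4 and Cd163 were called lower without the day 100 liver (adjusted p = 0.015 and 0.011) and with centring (0.040 and 0.024), and Cd163 also without uninjected liver A (0.048). All 13 MHC class II genes tested of 15 were higher (8 of 8 with an uninjected mean of 1 FPKM or more), with a median 1.92 above that of all genes (2.71 for the 8), 11 of the 13 had the larger difference at day 200, and 11 to 13 were higher when any 1 of the 5 livers was left out. Cd74, the invariant chain, went from 70.6, 63.1 and 143 to 746 and 889 FPKM (3.23 ± 0.59, adjusted p = 0.0014).

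Neutrophil and lymphocyte markers were mostly at low levels in uninjected livers, so many passed only through the late livers. Of 11 neutrophil markers 4 were tested, all of them higher (2 of 2 with an uninjected mean of 1 FPKM or more), and their summed level went from 9.78, 5.11 and 20.5 FPKM to 112 and 201 FPKM, almost all of it S100a8 and S100a9, which other myeloid cells make too. Of 18 T and NK cell markers 7 were tested and 6 were higher (3 of 4 with an uninjected mean of 1 FPKM or more), with summed levels of 8.60, 5.78 and 12.7 FPKM and then 37.5 and 52.0 FPKM. Of 8 B and plasma cell markers tested, 6 were higher (1 of 3 with an uninjected mean of 1 FPKM or more, and 2 without the day 200 liver). Their summed level went from 284, 276 and 308 FPKM to 468 and 409 FPKM, most of it Sdc1 and Xbp1, which hepatocytes express too. Igj, the joining chain of secreted IgA and IgM, went from 1.05, 0.534 and 0.621 to 81.3 and 102 FPKM (5.74 ± 0.76, adjusted p = 2.2e-04). Igj was higher at day 200 than at day 100. Of 30 chemokines and receptors tested, 23 were higher and 1, Ccl25, lower (adjusted p = 0.022, and 0.060 to 0.13 without any one of uninjected A, uninjected B, day 100 and day 200). Of the higher ones 11 were among the 17 with an uninjected mean of 1 FPKM or more, and 15 were higher without the day 100 liver. Cxcl14, an epithelial chemokine, went from 1.41, 1.07 and 0.896 to 31.7 and 28.4 FPKM (3.88 ± 0.58, adjusted p = 4.6e-04). Ubd, a ubiquitin-like modifier induced by inflammatory cytokines, went from 0.555, 0.524 and 1.42 to 100.4 and 84.2 FPKM (5.70 ± 0.65, adjusted p = 1.1e-04). Of 41 interferon-stimulated genes tested, 14 were higher (34.1% beside 28.3%, and 11 of 38 with an uninjected mean of 1 FPKM or more), and all 41 had the larger value at day 100 (38 after subtraction of the median of all genes). With centring 4 of the 41 were higher, beside 1878 of 11340 genes. With the day 100 liver removed 1 was higher and without uninjected liver B 3. Endothelial markers gave 6 higher of 19 tested (31.6%, and 5 of 18 with an uninjected mean of 1 FPKM or more), 1 with centring, 1 without the day 100 or the day 200 liver and 2 without uninjected liver A. Cd34, a sialomucin of continuous endothelium, went from 1.39, 0.829 and 1.20 to 25.9 and 29.8 FPKM (3.76 ± 0.40, adjusted p = 8.4e-05), while the sinusoidal receptor Stab2 was at 4.68, 9.05 and 10.5 and then 9.71 and 7.86 FPKM (0.17 ± 0.27, adjusted p = 0.69). The part of cell makeup in the differences of single genes was not tested.

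Of 32 acute phase genes tested, which include intracellular and receptor genes beside those of plasma proteins, all with an uninjected mean of 1 FPKM or more, 10 were higher (31.2%, beside 22.7% of such genes and 28.3% of all genes) and none lower. The count was 6 without the day 100 liver, 8 higher and 2 lower with centring, and 12 higher and 5 lower without the livers with Y-linked transcripts. The higher ones include S100a8 and S100a9, counted above as neutrophil markers, and Cd14, a receptor of myeloid cells. Lcn2, the iron-siderophore carrier lipocalin 2, went from 15.1, 2.27 and 12.8 to 595 and 406 FPKM (5.78 ± 0.73, adjusted p = 1.8e-04), and Orm2, an acid glycoprotein of plasma, from 19.9, 5.09 and 28.2 to 335 and 151 FPKM (3.87 ± 0.77, adjusted p = 0.0023). In both genes uninjected liver B was the lowest, and without the livers with Y-linked transcripts the differences were 5.05 and 3.20. The fibrinogen chain Fgb, one of the most abundant members, was at 3476, 3957 and 4772 FPKM and then at 3482 and 3685 FPKM (−0.17 ± 0.29, adjusted p = 0.70), and its groups overlapped. Iron genes, which the liver couples to inflammation, gave 7 higher of 22 tested (31.8%, near the 28.3% of all genes) and none lower. Of the 21 with an uninjected mean of 1 FPKM or more 6 were higher, beside 22.7% of all such genes. Bmp6, the signal that reports iron stores, went from 1.01, 1.56 and 2.11 to 11.1 and 8.84 FPKM (2.11 ± 0.22, adjusted p = 7.4e-05), and Id1, a target of that signal, from 12.9, 4.51 and 4.38 to 37.2 and 50.7 FPKM (2.58 ± 0.49, adjusted p = 0.0017). Hamp, the iron hormone hepcidin and another target, was at 3147, 1636 and 1935 and then 3506 and 3673 FPKM (0.74 ± 0.43, adjusted p = 0.23) and did not pass, although both late livers lay above all 3 uninjected livers.

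Cell cycle genes were higher, more so at day 100. Of 52 listed, 45 were tested and 37 were higher, none lower (16 of 24 with an uninjected mean of 1 FPKM or more). Their median lay 1.43 above that of all genes at day 100 and 0.71 above it at day 200 (1.16 and 0.64 for the 24), and all 45 had the larger value at day 100 (44 after subtraction of the median of all genes). Without the day 100 liver 5 were higher, and without the day 200 liver 39. Ube2c, a ubiquitin-conjugating enzyme of mitosis, went from 0.584, 0.238 and 1.66 to 12 and 3.58 FPKM (2.15 ± 0.56, adjusted p = 0.011), and Birc5, the mitotic regulator survivin, from 0.766, 0.450 and 1.90 to 12.1 and 4.51 FPKM (2.13 ± 0.52, adjusted p = 0.0076). Ccnd1, the cyclin that starts G1, went from 41.3, 8.22 and 44.6 to 133 and 90.4 FPKM (2.09 ± 0.57, adjusted p = 0.014), with uninjected liver B far below A and C. Of 20 p53 and cell death genes tested, 8 were higher (7 of 19 with an uninjected mean of 1 FPKM or more, 3 with centring, 3 without the day 100 liver and 5 without uninjected liver B) and 2 lower (1 without uninjected A or C or either late liver). Cdkn1a, the cell cycle inhibitor p21, went from 2.00, 1.36 and 4.34 to 17.5 and 19.9 FPKM (2.55 ± 0.56, adjusted p = 0.0041). Of 23 immediate early genes, 7 were higher (5 of 21 with an uninjected mean of 1 FPKM or more, and 4 without the day 100 liver). These 7 were 30.4% of the list, near the 28.3% of all genes, and the 5 of 21 stand beside 22.7% of all genes with such a mean. Myc, a growth transcription factor, went from 0.988, 0.657 and 1.18 to 17.0 and 4.71 FPKM (2.39 ± 0.40, adjusted p = 7.4e-04), most of it at day 100. The ER and integrated stress list had 2 higher and 1 lower of 26 (1 and 6 with centring, 4 and 1 without the livers with Y-linked transcripts, and 1 to 3 and 0 to 4 when 1 liver was left out), and Psat1, an enzyme of serine synthesis, went from 0.411, 0.417 and 0.498 to 6.34 and 4.04 FPKM (2.08 ± 0.26, adjusted p = 1.8e-04). Sprr1a, a cornified envelope protein that is induced in injured epithelia and on no list, was among the 10 largest rises, from 0.030, 0.032 and 0.032 to 67.4 and 33.1 FPKM (5.55 ± 0.78, adjusted p = 3.1e-04). Ube2c, Birc5 and Ccnd1 lost their calls without the day 100 liver, with an adjusted p of 0.14 to 0.19.

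**Figure D3:**
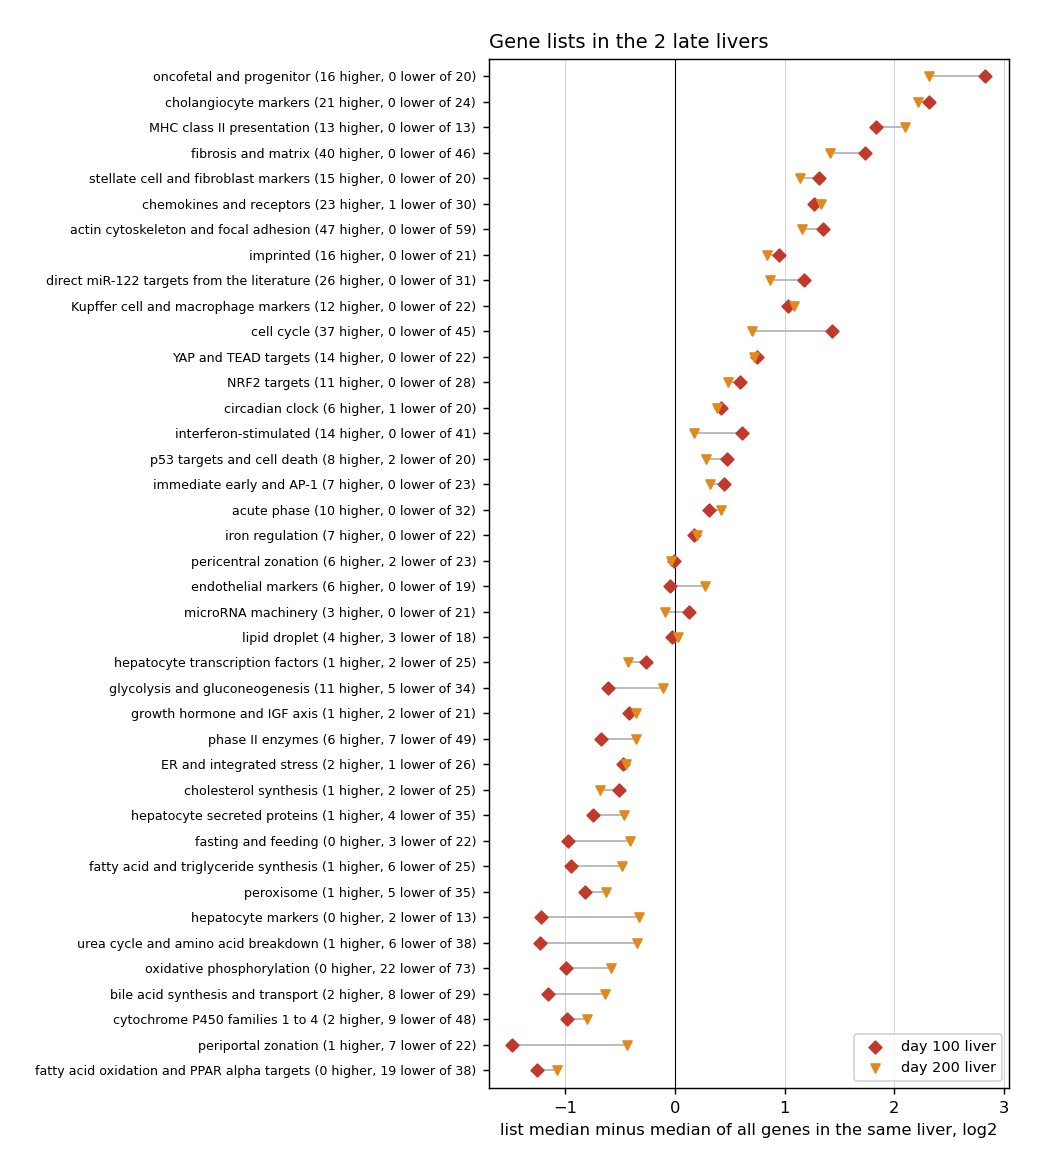
Gene lists with 10 or more tested members, without the predicted target lists, the male-biased and female-biased genes and the genes the study names. For each list shown, the median difference from the uninjected livers minus the median of all genes in the same late liver, in log2 units, with a diamond for the day 100 liver and a triangle for the day 200 liver. Counts of members called are beside the names, and the largest gaps between the 2 livers are those of periportal, urea cycle and hepatocyte marker genes, which were lower at day 100, and of cell cycle genes, which were higher there.

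Genes of fat burning had the largest share of lower members among the gene lists. Of 39 genes of fatty acid oxidation and PPAR alpha targets, 38 were tested, and 19 (50.0%, beside 3.27% of all genes) were lower and none higher. Their median lay 1.14 below that of all genes, and 27 were lower without the livers with Y-linked transcripts. With day 200 alone as the late group 7 were lower. Acaa2, the last enzyme of mitochondrial β-oxidation, went from 1053, 865 and 847 to 357 and 513 FPKM (−1.10 ± 0.23, adjusted p = 0.0028), and its peroxisomal counterpart Acaa1b from 454, 549.8 and 372 to 113 and 166 FPKM (−1.72 ± 0.31, adjusted p = 0.0013). In Acaa2 and Acaa1b the groups did not overlap. Fabp1, the fatty acid binding protein of liver and 1 of the most abundant transcripts, went from 17102, 13775 and 11873 to 5381 and 4858 FPKM (−1.46 ± 0.36, adjusted p = 0.0087). Of 35 peroxisome genes tested, 5 were lower (14.3%) and 1 higher, with 13 lower with centring, 15 without the livers with Y-linked transcripts, 3 without uninjected liver A and 1 without the day 100 liver. Slc27a2, which imports very long chain fatty acids, went from 737, 660.4 and 652 to 198 and 265 FPKM (−1.57 ± 0.36, adjusted p = 0.0050). Oxidative phosphorylation gave 22 lower of 73 tested (30.1%) and none higher, with a median 1.00 below that of all genes at day 100 and 0.58 below at day 200. With centring 39 were lower, without the day 100 liver 1, without uninjected liver A 7 and without uninjected liver B 11. Cox7c, a subunit of complex IV, went from 35.6, 37.6 and 43.4 to 12.6 and 24.7 FPKM (−1.09 ± 0.32, adjusted p = 0.021), and Ndufb10, a subunit of complex I, from 192, 142 and 145 to 80.1 and 105 FPKM (−0.78 ± 0.20, adjusted p = 0.011). Cox7c lost its call without uninjected liver C. Acaa2, Fabp1, Slc27a2, Cox7c and Ndufb10 lost their calls without the day 100 liver. Fabp1 lost its call without the day 200 liver, and these fits gave an adjusted p of 0.052 to 0.31.

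Of the remaining hepatocyte functions, some members were lower and others did not pass. The 13 tested hepatocyte markers summed to 55510, 54573 and 52012 FPKM in uninjected livers and to 26704 and 39318 FPKM in late livers, with 2 of them called lower and none higher (none lower without uninjected liver A or the day 100 liver, 1 without uninjected B or C, and 3 without the day 200 liver). The sums include Ahsg, listed at 7425 FPKM in uninjected liver B, and Serpina1c, listed at 860 FPKM at day 100, each at 0 elsewhere. Alb, the albumin gene, was listed at 0 in all 5 livers and adds nothing, so the sums are uncertain. Apoa1 and Apoa2, the main apolipoproteins of HDL, went from 13489, 11396 and 11756 to 4942 and 8122 FPKM (−0.94 ± 0.32, adjusted p = 0.038) and from 21203, 14577 and 16278 to 5876 and 10123 FPKM (−1.15 ± 0.33, adjusted p = 0.019). Hnf4a, the leading transcription factor of hepatocyte identity, was at 179, 201 and 201 FPKM and then at 156 and 207 FPKM (−0.11 ± 0.19, adjusted p = 0.71). Of 29 genes of bile acid synthesis and transport tested, 8 were lower (27.6%) and 2 higher, and 2 were lower without the day 100 liver, 4 without uninjected C and 5 without uninjected B. Slc10a1, the uptake carrier NTCP of the sinusoidal membrane, went from 705, 532 and 633 to 171 and 250.1 FPKM (−1.58 ± 0.34, adjusted p = 0.0035), and Cyp8b1, the enzyme that sets the share of cholic acid, from 130.5, 266 and 205 to 64.3 and 68.7 FPKM (−1.52 ± 0.50, adjusted p = 0.034). Abcc4 and Ostb, which export bile acids back to blood, were the 2 that rose, by 1.87 ± 0.21 and 2.07 ± 0.37, and the only members tested with an uninjected mean under 1 FPKM. Of 48 cytochrome P450 genes, 9 were lower (18.8%) and 2 higher. The count of lower genes was 16 with centring, 2 without the day 100 liver, 5 without uninjected liver C, 6 without uninjected liver A or the day 200 liver, and 23 without the livers with Y-linked transcripts. None was higher without the day 100 liver and 7 were without the livers with Y-linked transcripts. Cyp2c50 went from 648, 425 and 547 to 87.3 and 203 FPKM (−1.99 ± 0.50, adjusted p = 0.0089), whereas Cyp2a5, a coumarin hydroxylase, went from 342, 96.7 and 158 to 719 and 706 FPKM (2.03 ± 0.51, adjusted p = 0.0093). Ces3b, a carboxylesterase of the endoplasmic reticulum, had one of the largest falls, from 218, 281 and 198 to 6.16 and 19.2 FPKM (−4.26 ± 0.52, adjusted p = 1.5e-04). Apoa1 and Apoa2 lost their calls without uninjected liver A. Apoa1 and Cyp8b1 lost their calls without uninjected liver B. Apoa1 and Cyp8b1 lost their calls without uninjected liver C. Apoa1, Apoa2, Slc10a1, Cyp8b1, Cyp2c50 and Cyp2a5 lost their calls without the day 100 liver. Cyp8b1 lost its call without the day 200 liver, and these fits gave an adjusted p of 0.062 to 0.37.

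The medians of periportal and urea cycle genes lay further down at day 100 than at day 200. Periportal genes, expressed where blood enters the lobule, gave 7 lower of 22 (31.8%) and 1 higher, with a median 1.48 below that of all genes at day 100 and 0.44 below at day 200. With the day 100 liver left out none was lower, without uninjected B 4, without uninjected C 3, and without the day 200 liver 9. Of 23 pericentral genes, 6 were higher and 2 lower (1 and 1 without the day 100 liver, and 6 and 5 without the livers with Y-linked transcripts), and the median was 0.01 below at day 100 and 0.03 below at day 200. The pericentral counts are 26.1% higher and 8.7% lower, beside 28.3% and 3.27% of all genes. All 23 had an uninjected mean of 1 FPKM or more, and of all such genes 22.7% were higher and 3.58% lower. Pigr, the receptor that carries IgA into bile, was at 486, 446 and 570.4 and then 105 and 265 FPKM (−1.57 ± 0.41, adjusted p = 0.011), and Hal, the first enzyme of histidine breakdown, at 119, 150.5 and 199.8 and then 42.0 and 90.9 FPKM (−1.29 ± 0.40, adjusted p = 0.025). G6pc, the glucose-6-phosphatase of liver, went from 228, 463 and 496 to 51.7 and 124 FPKM (−2.21 ± 0.65, adjusted p = 0.022). In all 3 genes the day 100 liver was the lowest. Of 38 urea cycle and amino acid genes 6 were lower and 1 higher (medians 1.23 and 0.35 below that of all genes at days 100 and 200). With day 200 alone as the late group none of these 38 was lower, with centring 11, without the livers with Y-linked transcripts 12, without uninjected C 2, and without the day 200 liver 11. Oat, an ornithine aminotransferase of pericentral cells, was the one that rose, from 449, 412 and 719 to 1460.0 and 1067 FPKM (1.29 ± 0.30, adjusted p = 0.0060). In glycolysis 11 of 34 were higher (9 of 32 with an uninjected mean of 1 FPKM or more) and 5 lower, and the lower ones numbered 9 with centring, 2 without uninjected B, 3 without C and none without the day 100 liver. The 11 higher ones were 32.4% of the list, beside 28.3% of all genes. The higher ones include Pkm2, the pyruvate kinase of non-hepatocytes and fetal liver, with 6.38, 5.05 and 7.41 FPKM and then 23.0 and 25.0 FPKM (1.79 ± 0.46, adjusted p = 0.010), and the lower ones Pklr, the liver form, with 115, 156 and 117 FPKM and then 59.3 and 75.6 FPKM (−0.92 ± 0.26, adjusted p = 0.017). In fatty acid synthesis 6 of 25 were lower (2 without the day 100 liver) and 1 higher. Acss2, an acetyl-CoA synthetase, went from 199, 149 and 176 to 46.4 and 70.3 FPKM (−1.59 ± 0.32, adjusted p = 0.0023), while Scd2, a desaturase scarce in adult liver, went from 1.96, 1.23 and 1.91 to 34.1 and 20.1 FPKM (3.35 ± 0.32, adjusted p = 5.3e-05). Whether the mice were fed or fasted, and the hour of collection, are not given. Of the clock genes, 6 of 20 were higher (6 of 19 with an uninjected mean of 1 FPKM or more) and 1 lower, with 1 higher and 3 lower with centring and between 1 and 10 higher when 1 liver was left out, and Dbp, a clock output factor, was at 38.5, 5.99 and 2.60 and then 55.8 and 43.3 FPKM (2.33 ± 0.74, adjusted p = 0.030), with uninjected liver A apart from B and C. Hal, G6pc, Pklr and Dbp lost their calls without uninjected liver B. Hal, G6pc and Dbp lost their calls without uninjected liver C. Pigr, Hal, G6pc, Oat, Pkm2, Pklr and Dbp lost their calls without the day 100 liver. Pkm2 and Dbp lost their calls without the day 200 liver, and these fits gave an adjusted p of 0.054 to 0.34.

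Within lipid handling and detoxification, single genes moved in either direction. Of 18 lipid droplet and uptake genes tested, 4 were higher (3 of 17 with an uninjected mean of 1 FPKM or more) and 3 lower (2 and 5 with centring, and 2 and none without the day 100 liver). Without uninjected liver A 2 were higher and 3 lower. Mogat2, a monoacylglycerol acyltransferase of the intestine, went from 0.168, 0.093 and 0.184 to 22.1 and 8.55 FPKM (3.69 ± 0.42, adjusted p = 1.1e-04), and Lpl, the lipoprotein lipase of muscle and fat, from 3.82, 5.95 and 5.13 to 39.1 and 45.1 FPKM (2.87 ± 0.47, adjusted p = 7.2e-04). Both genes are scarce in adult liver. Plin2, the coat protein of hepatocyte lipid droplets, went the other way, from 274, 387 and 439.5 to 205 and 143 FPKM (−1.07 ± 0.34, adjusted p = 0.029). Of 25 cholesterol synthesis genes tested, 1 was higher and 2 were lower, with 5 lower without the livers with Y-linked transcripts and none called without the day 100 or the day 200 liver. Of 49 phase II enzymes, 6 were higher (4 of 47 with an uninjected mean of 1 FPKM or more) and 7 lower. With centring 4 were higher and 11 lower. The lower ones numbered 1 without the day 100 liver and 4 without uninjected A, uninjected C or the day 200 liver, and without the livers with Y-linked transcripts 12 were higher and 15 lower. Among them Gsta1 and Gstm3, glutathione transferases that NRF2 can induce, had the largest rises. Gsta1 went from 0.046, 0.947 and 0.102 to 26.7 and 13 FPKM (3.91 ± 0.88, adjusted p = 0.0049), and Gstm3 from 20.6, 23.7 and 26.1 to 428 and 235 FPKM (3.71 ± 0.55, adjusted p = 4.4e-04). Close copies make the split among the Gsta and among the Gstm genes uncertain. NRF2 targets as a list gave 11 higher of 28 (39.3%) and none lower (8 of 25 with an uninjected mean of 1 FPKM or more), 6 with centring, 5 without the day 100 liver and 18 without the livers with Y-linked transcripts. Of 25 hepatocyte transcription factors 1 was higher and 2 lower, and of 21 genes of the growth hormone axis 1 was higher and 2 were lower. With 1 liver left out the lower ones numbered 0 to 2 in either list, and the 1 of the growth hormone axis that was higher lost its call without any one of the 5 livers. Without the livers with Y-linked transcripts 4 transcription factors and 6 genes of the growth hormone axis were lower. Igfbp2, an IGF binding protein, went from 627, 293 and 452 to 93.2 and 289.5 FPKM (−1.40 ± 0.44, adjusted p = 0.026), the opposite direction to Igf2. Of 21 genes of the microRNA machinery, 3 were higher (1 with centring, 1 without any one of uninjected A, B, C and day 100, 2 without day 200 and 5 without the livers with Y-linked transcripts), led by Drosha, the nuclease that starts microRNA maturation, with 2.65, 2.48 and 2.49 FPKM and then 7.98 and 5.19 FPKM (1.07 ± 0.17, adjusted p = 5.7e-04). Of 22 fasting and feeding genes 3 were lower (6 with centring, 5 without the livers with Y-linked transcripts, none without uninjected B or the day 100 liver, and 1 without uninjected C) and none higher, and no erythroid (5 tested) or pancreas (2 tested) marker passed in either direction (1 erythroid marker was lower with centring). Igfbp2 lost its call without uninjected liver A. Plin2 lost its call without uninjected liver B. Plin2 and Igfbp2 lost their calls without uninjected liver C. Plin2, Gsta1 and Igfbp2 lost their calls without the day 100 liver. Plin2 lost its call without the day 200 liver, and these fits gave an adjusted p of 0.060 to 0.43.

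Genes that differ between male and female mouse liver need uninjected liver B, with its Y-linked transcripts, to be read apart, since both late livers carry Xist and no Y-linked level above 0.036 FPKM. Several of the largest falls belong here. Mup17, a major urinary protein, went from 69.3, 2033 and 175 to 1.42 and 1.39 FPKM (−6.93 ± 1.20, adjusted p = 0.0010). Slco1a1, an organic anion carrier of male liver, went from 39.8, 188 and 70.2 to 0.583 and 0.352 FPKM (−5.81 ± 1.02, adjusted p = 0.0011), and Mup3 from 3134, 9420.1 and 2880.2 to 124 and 249 FPKM (−4.64 ± 0.94, adjusted p = 0.0026). In each of these genes liver B was the highest, and livers A and C still lay far above both late livers. Without the livers with Y-linked transcripts the differences were −5.53, −5.20 and −4.09 (adjusted p = 0.0018, 1.4e-04 and 1.8e-04). Mup genes are near-identical copies, so their single values are uncertain. Of 23 male-biased genes tested, 4 were lower (2 without uninjected B or either late liver), and 9 were lower and 3 higher without the livers with Y-linked transcripts. For 27 female-biased genes the comparison depended on liver B, with 3 higher and none lower against 5 higher and 9 lower without those livers. Cyp2c69, a female P450, was at 760.0, 5.12 and 667 FPKM and then at 132 and 32.9 FPKM. Its difference of −1.12 ± 2.94 (adjusted p = 0.81) became −3.41 without those livers (adjusted p = 0.0041). Egfr, the epidermal growth factor receptor, which is higher in male liver, went from 70.1, 327 and 119 to 24.5 and 34.3 FPKM (−2.24 ± 0.58, adjusted p = 0.011), and was −1.63 without them. Egfr lost its call without the day 100 liver, with an adjusted p of 0.11.

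**Figure D4:**
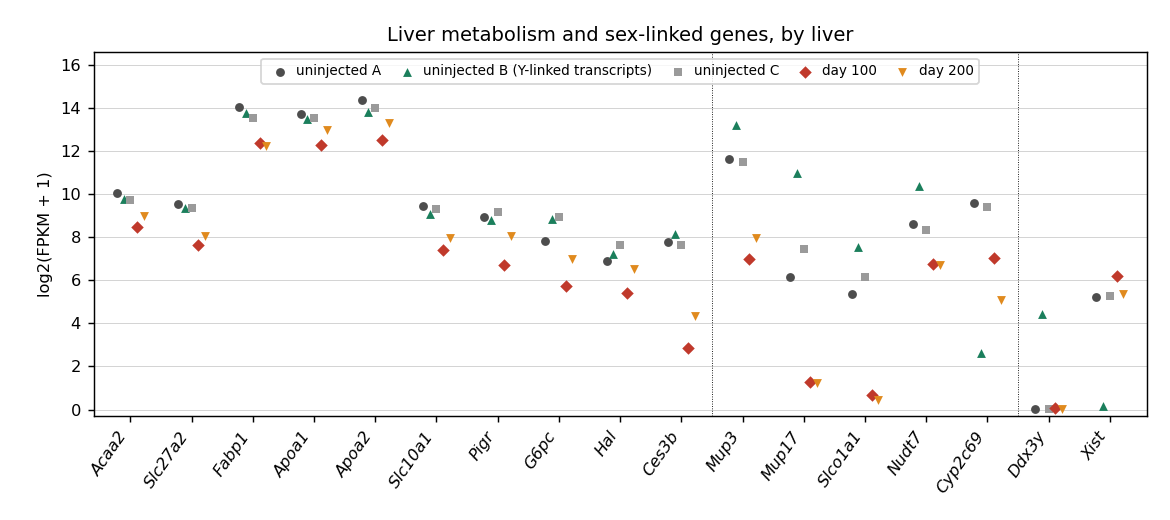
Levels of 17 genes as log2(FPKM + 1) on the vertical axis, with 1 symbol per liver. In the left block, of metabolic and plasma protein genes, both late livers lie below all 3 uninjected livers, in the middle block, of sex-biased genes, the green triangle of uninjected liver B stands apart from A and C, and the right block shows Ddx3y, with 20.8 FPKM in liver B, and Xist.

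Some abundant plasma protein genes could not be compared. In 13 genes 1 or more of the 5 livers were listed at exactly 0 while another was above 100 FPKM. Ahsg, which encodes fetuin A, was listed at 7425 FPKM in liver B and at 0 in the other 4, and Trf, the transferrin gene, at 6279 FPKM in liver B and at 0 in the other 4. Serpina1b, a gene of α1-antitrypsin, was listed at 0 in all uninjected livers and at 2679 and 3760.1 FPKM in the late ones, and Serpina1d at 0 and at 932 and 1566 FPKM. Every liver makes these proteins, so such a 0 may be a failed estimate, and the Serpina1 and Mup genes are near-identical copies among which fragments may be split. No fold is given for them, although Serpina1b and Serpina1d are among the genes that passed (adjusted p = 0.023 and 0.027). Serpina1b did not pass without any one of uninjected A, uninjected B, day 100 and day 200 (0.051 to 0.12), nor Serpina1d without any one of the 5 livers (0.057 to 0.12).

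The late livers differed little from each other in most genes. The absolute difference between day 200 and day 100 had a median of 0.19 on the log2 scale and was under 1 in 98.4% of genes, without a test since each is 1 mouse. Day 200 exceeded day 100 by 2 or more in 16 genes and was below it by as much in 8. Of the genes called higher, 2344 of 3212 had the larger rise at day 100, and of those called lower, 268 of 371 had the larger fall there. Rgs16, a regulator of G protein signalling that responds to feeding, was at 43.9, 18.0 and 81.7 FPKM in uninjected livers, 6.04 FPKM at day 100 and 64.7 FPKM at day 200. Marco, a scavenger receptor of macrophages, was at 12.5, 2.29 and 8.53 FPKM in uninjected livers, 27.6 FPKM at day 100 and 4.2 FPKM at day 200. In both genes 1 late liver lay outside and the other inside the range of the uninjected livers. Tsc22d3 and Zbtb16, both induced by glucocorticoids, were also higher at day 200. Tsc22d3 was at 64.0, 43.0 and 85.2 FPKM in uninjected livers, 34.9 FPKM at day 100 and 149 FPKM at day 200, and Zbtb16 was at 2.86, 4.67 and 3.53, 1.64 and 10.1 FPKM. Lpin1, a phosphatidic acid phosphatase raised by fasting, was at 26.5, 18.7 and 7.68, 10.1 and 52.9 FPKM. In Tsc22d3 and Zbtb16 the day 100 liver lay below all uninjected livers and the day 200 liver above them, and in Lpin1 only the day 200 liver lay outside their range. These 3 genes were named after their values were seen. Several others of the 24 are small nucleolar RNAs, Sult2a copies or Serpina1 copies with values of 0 in 1 or more livers.

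The 3 livers taken 45 days after Cre delivery show which differences were larger or smaller at the late times, and few genes passed. At an adjusted p under 0.05, 35 genes were higher (0.309% of 11340) and 4 lower (0.0353%) at days 100 and 200. With a pseudocount of 0.1 in place of 1, limma called 3 higher and 0 lower (155 lower at an unadjusted p under 0.05), so the number depends on the pseudocount. Nctc1, beside H19, was listed at 0, 0.028 and 0.016 FPKM in the day 45 livers and was at 4.16 and 3.57 FPKM later (2.26 ± 0.17, adjusted p = 9.2e-05), and Igf2as was at 0.073, 0.397 and 0.004 and then 6.88 and 4.05 FPKM (2.46 ± 0.34, adjusted p = 0.012). Igf2 itself was at 39.8, 255 and 3.66 FPKM at day 45, below both late livers, and did not pass (6.18 ± 1.25, adjusted p = 0.074). Cpe, a carboxypeptidase that trims peptide hormones, went from 1.12, 3.06 and 1.68 to 40.8 and 20.5 FPKM (3.40 ± 0.61, adjusted p = 0.038), and Krt17, a keratin of basal and injured epithelia, from 0.219, 0.735 and 0.476 to 5.06 and 7.00 FPKM (2.25 ± 0.36, adjusted p = 0.021). The duct markers Anxa13 and Slc5a1 were also higher than at day 45, by 1.83 ± 0.29 and 1.66 ± 0.26 (adjusted p = 0.021 and 0.019). Sult2a5, a sulfotransferase, went from 0.134, 0.314 and 0.042 to 2.89 and 14.5 FPKM (2.74 ± 0.51, adjusted p = 0.045), with a large gap between the late livers. The 4 genes that were lower than at day 45 returned towards or past the uninjected level. Timd4 was at 14.2, 13.2 and 13.1 FPKM at day 45 (−1.75 ± 0.32, adjusted p = 0.040), and Ces2e, a carboxylesterase, at 238, 193 and 202 and then 94.0 and 81.1 FPKM (−1.26 ± 0.19, adjusted p = 0.019) beside 96.6, 123 and 97.1 FPKM without injection. Aen, a nuclease induced by p53, was at 10.7, 8.58 and 9.15 and then 4.70 and 3.61 FPKM (−1.02 ± 0.17, adjusted p = 0.022) beside 3.85, 3.79 and 4.54 FPKM without injection, and 9030617O03Rik was at 79.1, 69.2 and 84.1 and then 39.1 and 28.4 FPKM (−1.19 ± 0.19, adjusted p = 0.022) beside 18.8, 13.8 and 18.3 FPKM. None of the 31 tested literature targets of miR-122 passed against day 45, and their median difference from day 45 was 0.16. Of the 11 genes named here as past the threshold, only Nctc1 stayed past it whichever liver was left out. Without day 45 liver A or C it was the only one of them past the threshold, with 6 and 4 genes higher in all, and without day 45 liver B 157 genes were higher (leaving out day 45 livers was a choice made after seeing the data). The adjusted p of the other 10 reached 0.44.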

How the data were processed

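RNA was measured in whole liver by poly-A RNA-seq (paired reads). The authors aligned the reads to mm9 and deposited FPKM made with Cufflinks 2.2.1 under quartile normalisation, with ribosomal, snoRNA and mitochondrial sequences stated as removed (the table still lists some snoRNA genes), and they deposited microRNA levels as RPM (Bowtie 0.12.7) with 1 added, per the submitters' processing notes and the study's methods. FPKM keep no counts, so the study's own test on reads was not repeated, the depth is unknown, and no count model was used.

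Of the 22308 rows, those that share 1 of the 21888 symbols were summed (224 symbols). Genes whose mean over the 5 livers reached 1 FPKM were fitted as log2(FPKM + 1) with limma 3.58.1 (R 4.3.3, eBayes with trend) over 5 groups and 14 libraries (uninjected, day 21, day 45, days 100 and 200 as 1 group, miR-122 knockout), which share 1 estimate of the spread. p-values are two-sided and adjusted by Benjamini-Hochberg over all 11340 genes, with a threshold of 0.05. A fold on this scale understates the change of low genes. In data simulated for the comparison of days 100 and 200 with uninjected livers on these 11340 genes, with 200 changed, the fit recovered 41%, 90% and 98% of changes of 1, 2 and 4 on the log2 scale, with 3, 12 and 21 false calls. The simulated spread was normal, all 200 changes were rises, equal in both late livers, and all genes together had no shift. The setting therefore differs from the data, in which many more genes were called.

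The labels give no other link between samples than group and replicate letter. miR-122 reads were recovered from RPM after the added 1 was removed, and 37 of the 42 small RNA columns were not used. The gene lists and members were chosen with earlier results of these data known. Named genes are the 10 largest rises and falls past the threshold with separated groups, up to 4 called in each direction and the 3 most abundant of each list, genes the study names, the 5 most different in each direction between the late livers, the 5 called in each direction against day 45, and cell type markers. Genes named outside this rule were chosen after their values were seen. Some genes that fall under it are not reported here. Sites for microRNA seeds were searched in RefSeq 3′ UTRs (GRCm38.p6), from which no coordinates were taken, and gene coordinates are those of the deposited table. The closing section gives the alternatives.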

Additional observations from a re-analysis of the deposited data

Results flagged for a closer look

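The results here differ between times after Cre delivery, by the test of the difference between days 100 and 200 and day 45 in the limma fit over all 11340 genes. Of the 11 genes described, 7 were at a higher level at days 100 and 200 than at day 45. On the log2 scale, Cpe differed by 3.40, Sult2a5 by 2.74, Igf2as by 2.46, Nctc1 by 2.26, Krt17 by 2.25, Anxa13 by 1.83 and Slc5a1 by 1.66. The other 4 were at a lower level, by −1.75 (Timd4), −1.26 (Ces2e), −1.19 (9030617O03Rik) and −1.02 (Aen). Both late livers lay on 1 side of all 3 day 45 livers in each of these genes. No group had 4 or more livers, so single livers could not be tested for standing apart from their group.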

How the results depend on the processing

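No paired analysis was possible because the day 100 and day 200 livers carry no replicate letter. Without a filter on low values 5414 genes were higher than in uninjected livers, with a mean of at least 5 FPKM 1331, and with libraries centred on their median 1878. Lower genes numbered 656 without the knockout libraries, 928 with centring and 659 without the livers with Y-linked transcripts. Leaving out 1 liver at a time gave 1575 to 2770 higher and 76 to 288 lower genes, and both lowest counts came without the day 100 liver, when 48.9% of the higher and 19.9% of the lower calls were shared with those on all livers. Against day 45, higher and lower genes numbered 3 and 0 with the 5 libraries alone, 76 and 7 without the knockout, 3 and 0 with a pseudocount of 0.1, 201 and 16 without a filter, 1 and 0 with at least 5 FPKM, and 57 and 8 without the livers with Y-linked transcripts. Leaving out 1 liver gave 4 to 157 higher and 0 to 7 lower. Where limma gave 0, between 101 and 306 genes were lower at an unadjusted p under 0.05. As reads per other microRNA read, miR-122 at day 100 was 2.26% and at day 200 11.4% of the uninjected mean, against 6.71% and 28.8% by share. Of 100 named genes called against uninjected livers, 66 kept direction and call under every alternative run, 90 under those that leave out no liver, and none changed sign. Named genes absent from an alternative, as under the filter of at least 5 FPKM, were not counted as lost there. The cause of the shifts between alternatives was not tested, apart from the number of genes or livers that an alternative removes.

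The late group is 2 mice of different days, 1 uninjected liver carries Y-linked transcripts, and no vector control or exact age is given. FPKM without counts limits what can be said of low genes, and near-identical copies cannot be separated.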
